A study of Homo sapiens with 4 samples.

Results

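Nascent RNA of Karpas 299 cells was compared between co-culture on Chinese hamster ovary (CHO) cells bearing CD30L, which binds the receptor CD30, and co-culture on CHO cells without it. Karpas 299 is an established line from an anaplastic large cell lymphoma with the ALK fusion, a T cell lymphoma marked by CD30 on its surface. The comparison covers 7661 of 22798 genes counted on their own strand, chosen because at least 300 of their bases were counted and their RPKM averaged 0.5 or more over both co-culture libraries. The assay was Bru-seq: bromouridine was given for the last 30 min of a 3 h exposure, and the labelled RNA was captured with an antibody, so that reads come mostly from RNA made in that window, introns included. RPKM is the read count scaled by the counted length of the gene and by the library total; RPM is the same without the length. Per the labels' protocols, the lymphoma cells lay on an adherent CHO layer and were collected from it by gentle pipetting, and CHO cells without the ligand were the negative control. The other experiment of the series treated Karpas 299 cells without a feeder layer with the solvent DMSO or with SM-164, a bivalent Smac mimetic and thus an antagonist of inhibitor of apoptosis (IAP) proteins, also for 3 h. Each of the 4 conditions has 1 library, all from the same cell line.

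CD30 is a receptor of the TNF receptor family that has no death domain and signals through TRAF adaptor proteins and the cellular IAP proteins bound to them. It is known to activate NF-kB through both the canonical branch, in which IkB inhibitors are degraded and RelA, c-Rel and p50 dimers enter the nucleus, and the non-canonical branch, in which NIK accumulates and the NFKB2 product is processed to p52. Many genes that NF-kB activates encode its own inhibitors, which limit the signal.

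The library totals were 45885630 reads on CHO and 45535365 on CD30L+ CHO, with 31030477 for DMSO and 26217590 for SM-164. With 1 library per condition no difference has a replicate check and no p-value was computed. A fold is the share of reads on CD30L+ CHO over that on CHO unless SM-164 is named, and the range in brackets after it is its 95% interval, which covers counting error only. Of 15 markers of the lymphoma line, 13 were above 0.5 RPKM in both co-cultures, among them TNFRSF8, which encodes CD30, and IRF4. ALK and CCR4 were below. ALK, at 0.137 and 0.0966 RPKM, had 4588 reads on CHO and 3206 on CD30L+ CHO, whereas CCR4 had 2 and 8. The T cell genes CD3E, CD2, LCK and CD5 had at most 10 reads in either co-culture, and CD4 stood at 0.863 RPKM on CHO and 0.464 on CD30L+ CHO. Of 9 human stromal markers 0 reached 0.5 RPKM (summed RPKM 0.172 on CHO and 0.163 on CD30L+ CHO), and of 5 epithelial markers 0 did (0.508 and 0.299). Of 8 markers of other blood cells, 2 were above 0.5 RPKM on CHO, LYZ at 0.600 and CSF1R at 0.735, and 1 on CD30L+ CHO, CSF1R at 0.653 with LYZ at 0.317. Hamster RNA mapped to human genes was not measured. In bulk libraries, fewer cells of a type and less RNA per cell cannot be told apart.

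The transcription of most genes differed little between the co-cultures, and a small set of genes, headed by BIRC3, IL8, RGS1, TNFAIP3 and NFKBIA, was much higher with the ligand. At 2-fold or more on the log2(RPKM + 0.25) scale, 75 of 7661 genes were higher on CD30L+ CHO cells (0.979%) and 56 were lower (0.731%), and 75% of all tested genes lay within 1.25-fold. On that scale 10 genes exceeded 4-fold in the higher and 3 in the lower direction. The median log2 ratio over all genes was -0.12, and TMM scaling, which centres the bulk of genes, moved it by 0.11 to -0.01. With TMM the split was 93 higher to 42 lower. With the median set to 0 it was 92 to 40, and after subtraction of the trend with gene length 96 to 24, so the higher genes made up 57.3% of the calls as deposited and 68.9%, 69.7% and 80.0% under these 3 scalings. These scalings move all ratios upward, so they can only add to the higher calls and remove lower ones: of the 56 lower genes 42 stayed called with TMM, 40 with the median set to 0 and 24 after subtraction of the length trend.

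The higher and lower genes differed in length and in the reads behind them. The 75 higher genes had a median of 21955 counted bases, a median RPKM of 1.70 on CHO and 4.96 on CD30L+ CHO, and together took 1.11% of the reads on CHO and 2.97% on CD30L+ CHO. The same 75 genes summed to 10614 RPM with DMSO, 17949 with SM-164, 11060 on CHO and 29705 on CD30L+ CHO. Of this gain, FNDC3B, a long gene for a membrane protein with fibronectin domains, gave 20.03%, NAMPT 11.3%, TANK 8.06% and BIRC3 5.82%. The 56 lower genes had a median of 1728 counted bases against 27212 for all tested genes, and a median of 137 reads on CHO and 44.5 on CD30L+ CHO. They took 0.0787% and 0.0308% of the reads. Among genes of at least 5000 counted bases, 64 of 6691 were higher (0.957%) and 12 were lower (0.179%).

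**Figure D1:**
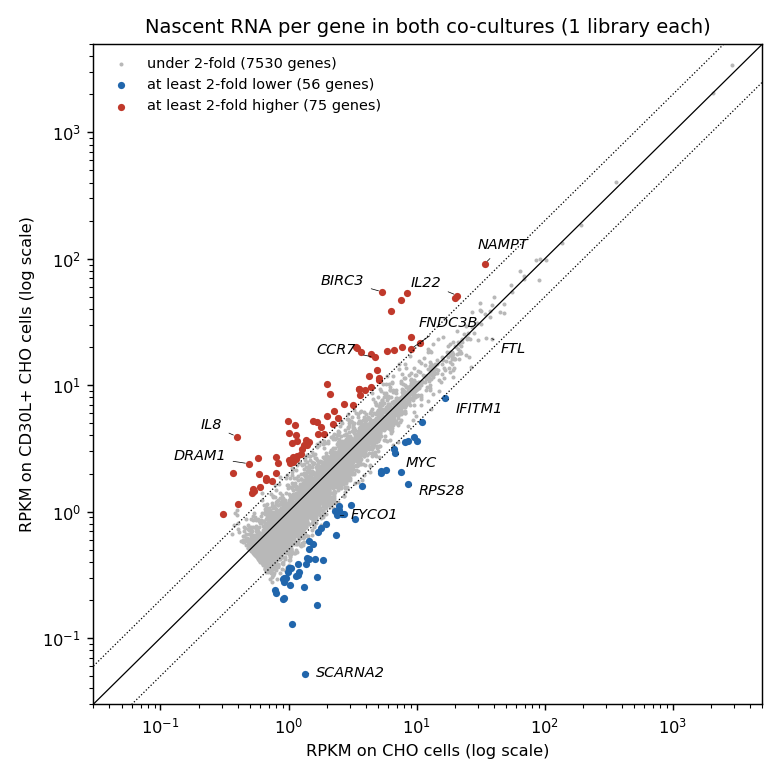
RPKM of each of the 7661 tested genes on CHO (x axis) and on CD30L+ CHO cells (y axis), both log scales, 1 library each; the solid line is equality and dotted lines are 2-fold. Red points are the 75 higher and blue points the 56 lower genes; NAMPT, at 91.3 RPKM on CD30L+ CHO, is the most transcribed of the higher genes and SCARNA2, at 0.0523, the least transcribed of the lower ones.

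CD30 itself and most of the adaptors and kinases beneath it differed little. TNFRSF8 stood at 4.97 RPKM on CHO, 5.10 on CD30L+ CHO, 9.59 with DMSO and 12.3 with SM-164, a ratio of 1.03-fold (1.01 to 1.05) between the co-cultures. Of 13 tested members of the CD30 and TRAF adaptor list, 2 were at least 2-fold higher and 0 lower, with a median log2 ratio of 0.14. For this count and those of the lists below, 0.979% of all tested genes were higher and 0.731% lower. TRAF1, an adaptor that binds TRAF2 and the cellular IAP proteins, read 3.36 RPKM on CHO, 20.1 on CD30L+ CHO, 1.78 with DMSO and 5.46 with SM-164, and was 5.99-fold (5.80 to 6.20) higher with the ligand. Its lowest value was the DMSO library's and its highest, well above the other three, was the CD30L+ CHO library's. TANK, a TRAF-binding protein that holds kinases of the interferon and NF-kB pathways, read 9.08 RPKM on CHO, 24.2 on CD30L+ CHO, 6.37 with DMSO and 11.4 with SM-164, and was 2.67-fold (2.64 to 2.70) higher. TRAF3, the adaptor that presents NIK for degradation, went from 1.39 to 2.83 RPKM, 2.04-fold (1.98 to 2.09), with a log2 ratio of 0.91 on the scale with the added 0.25, just short of the threshold. TRAF2, which recruits the cellular IAP proteins, was at 0.821-fold (0.753 to 0.895), TRAF6, an adaptor of the interleukin 1 and toll-like receptors, at 1.14-fold (1.07 to 1.20), and TRAF5 at 0.640-fold (0.605 to 0.677). TRAF3IP3, a TRAF3-binding protein of lymphocytes, had the lowest ratio of the list, 2.87 to 1.56 RPKM or 0.546-fold (0.515 to 0.577).

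TNFSF8, which encodes CD30L, had 1 read on CHO and 100 reads on CD30L+ CHO cells. At 0.059 RPKM over the gene it was below the minimum for the comparison. Reads from the ligand carried by the CHO line and from the lymphoma cells' own gene cannot be told apart in these counts.

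The IAP list was split between BIRC3, BIRC2 and the rest. BIRC3, which encodes c-IAP2, a ubiquitin ligase bound to TRAF2, had the highest log2 ratio of all tested genes, 3.29. It read 5.37 RPKM on CHO, 54.8 on CD30L+ CHO, 6.29 with DMSO and 40.7 with SM-164. The CHO and DMSO libraries were close and low, and the SM-164 and CD30L+ CHO libraries were both high. The estimated reads were 5405.5 on CHO and 54759.5 on CD30L+ CHO, 10.2-fold (9.93 to 10.5). BIRC2, which encodes c-IAP1, stood at 3.52 RPKM on CHO, 9.27 on CD30L+ CHO, 2.60 with DMSO and 3.12 with SM-164, 2.63-fold (2.55 to 2.72) higher, and unlike BIRC3 was close to its DMSO level with SM-164. XAF1, an antagonist of XIAP, was 1.96-fold (1.84 to 2.09) higher and HTRA2, a mitochondrial protease that binds IAP proteins, 1.86-fold (1.52 to 2.28); both were short of the 2-fold rule. XIAP was at 1.16-fold (1.11 to 1.21), BIRC6 at 1.02-fold (1.004 to 1.03), DIABLO, which encodes Smac, at 1.08-fold (1.003 to 1.17), NAIP at 0.859-fold (0.765 to 0.965) and BIRC5, which encodes survivin, at 0.791-fold (0.719 to 0.870). BIRC7 and SEPT4 had 0 reads in both co-cultures, which allows up to 3 reads each, or 0.0654 and 0.0659 RPM.

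Of 22 tested kinases and linear ubiquitin chain factors of the NF-kB pathway, 0 reached 2-fold in either direction on the RPKM + 0.25 scale, and the median log2 ratio was 0.00 (0.12 with TMM). The kinase genes IKBKB and CHUK were at 1.09-fold (1.05 to 1.12) and 0.995-fold (0.921 to 1.07), and MAP3K14, which encodes NIK, at 0.845-fold (0.814 to 0.878). RIPK1 was at 0.995-fold (0.959 to 1.03), MAP3K7, which encodes TAK1, at 1.08-fold (1.05 to 1.12), and TBK1 at 1.04-fold (1.01 to 1.08). TAB2, a subunit of the TAK1 complex, had the highest ratio of the list, 1.81-fold (1.78 to 1.83). At the low end were IRAK1, a kinase of the toll-like receptor pathway, from 0.891 to 0.395 RPKM or 0.443-fold (0.368 to 0.533) in reads with a log2 ratio of -0.82 on the scale of the call, SHARPIN, a subunit of the linear ubiquitin ligase, at 0.545-fold (0.438 to 0.677), and MYD88 at 0.617-fold (0.506 to 0.752). The other subunits of that ligase, RNF31 and RBCK1, were at 0.729-fold (0.628 to 0.846) and 0.907-fold (0.853 to 0.963), and FAM105B, now named OTULIN, which cleaves linear chains, at 1.03-fold (0.994 to 1.06). IRAK2, below the expression minimum at 0.137 to 0.406 RPKM, went from 496 to 1459 reads, 2.96-fold (2.68 to 3.29).

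All 5 NF-kB subunit genes had a ratio above that of the median gene, and 3 were at least 2-fold higher. RELB, a partner of p52, read 0.798 RPKM on CHO, 2.72 on CD30L+ CHO, 0.585 with DMSO and 1.63 with SM-164, 3.41-fold (3.21 to 3.63) higher. NFKB1, the precursor of p50, read 1.37 RPKM on CHO, 3.68 on CD30L+ CHO, 1.14 with DMSO and 1.97 with SM-164, 2.68-fold (2.61 to 2.75). NFKB2, the precursor of p52, read 0.601 RPKM on CHO, 1.55 on CD30L+ CHO, 0.968 with DMSO and 1.31 with SM-164, 2.59-fold (2.21 to 3.04), with the CHO library below the DMSO library. REL stood at 0.966 to 1.93 RPKM, 2.00-fold (1.89 to 2.11), a log2 ratio of 0.84 with the added 0.25. RELA, the p65 subunit, was at 1.22-fold (1.13 to 1.32), the smallest ratio of the family.

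The list of NF-kB inhibitors, which also holds other IkB family genes, had the most higher genes: 8 of 18 tested members, 0 lower, and a median log2 ratio of 0.52 (0.63 with TMM). Lists and members were chosen with earlier results of these data known, so this rank is in part built into the choice. All 18 were above the median gene, and the summed RPKM of the list was 37.2 with DMSO, 62.4 with SM-164, 48.9 on CHO and 139.5 on CD30L+ CHO. TNFAIP3, the gene of the ubiquitin-editing enzyme A20, read 7.57 RPKM on CHO, 47.6 on CD30L+ CHO, 6.32 with DMSO and 16.3 with SM-164, 6.29-fold (6.11 to 6.47) higher with the ligand. NFKBIA, which encodes IkB-alpha, read 6.34 RPKM on CHO, 38.6 on CD30L+ CHO, 4.19 with DMSO and 12.3 with SM-164, 6.08-fold (5.68 to 6.52). NFKBIZ, which encodes the nuclear protein IkB-zeta, read 0.994 RPKM on CHO, 5.18 on CD30L+ CHO, 0.442 with DMSO and 0.872 with SM-164, 5.21-fold (4.93 to 5.51). In all 3 the CD30L+ CHO library stood above the other three, and SM-164 was above DMSO. The smaller differences were in NFKBIE, which encodes IkB-epsilon, at 2.51-fold (2.22 to 2.85); in CYLD, a deubiquitinase, at 2.21-fold (2.15 to 2.28); and in TNIP1, a partner of A20, at 2.30-fold (2.20 to 2.40). ZC3H12D and ZC3H12A, endonucleases that degrade inflammatory mRNA, were at 4.60-fold (4.30 to 4.93) and 2.55-fold (2.32 to 2.81). NFKBIB and NFKBID stood at 1.53-fold (1.29 to 1.81) and 1.47-fold (1.32 to 1.63), BCL3 at 1.16-fold (1.11 to 1.22) and TNIP2 at 1.60-fold (1.46 to 1.76), so not every IkB family gene reached the threshold.

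**Figure D2:**
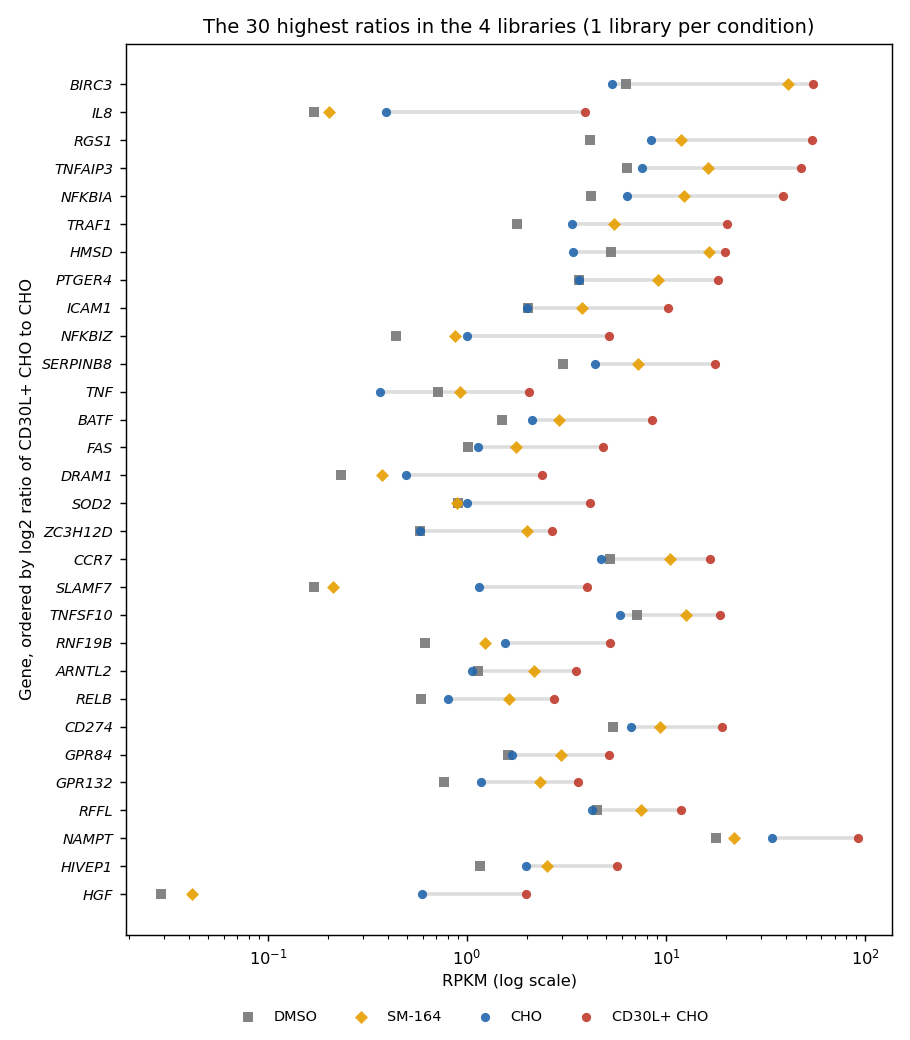
RPKM (log scale) of the 30 genes with the highest ratio in each of the 4 libraries, ordered from BIRC3 down; grey bars join the CHO and CD30L+ CHO values. For IL8, SOD2, NAMPT and HGF the SM-164 point lies close to the DMSO point, while for BIRC3 it lies at 40.7 RPKM, close to the CD30L+ CHO point.

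Promoter sequences were set beside these ratios, since several of the highest genes, such as NFKBIA and TNFAIP3, are known NF-kB targets. Windows of 300 bases, from 250 before to 50 after the RefSeq start on GRCh38.p14, were found by symbol for 6208 of the 7661 genes, 58 of the 75 higher and 44 of the 56 lower. The NF-kB consensus was in 14 of 58 higher windows (24.1%), 5 of 44 lower windows (11.4%) and 6.02% of all windows, read on both strands. Of the 15 highest genes, all of which had a window, 6 held it. These 6 are shown, with the matches in capitals, because they include TNFAIP3, NFKBIA and NFKBIZ of the inhibitor list above and BIRC3. BIRC3 is at chr11:102317234-102317533 on the plus strand, TNFAIP3 at chr6:137867009-137867308 on the plus strand, NFKBIA at chr14:35404700-35404999 on the minus strand, HMSD at chr18:63949051-63949350 on the plus strand, PTGER4 at chr5:40679665-40679964 on the plus strand and NFKBIZ at chr3:101827740-101828039 on the plus strand, each printed 5′ to 3′ on the gene's strand.
BIRC3: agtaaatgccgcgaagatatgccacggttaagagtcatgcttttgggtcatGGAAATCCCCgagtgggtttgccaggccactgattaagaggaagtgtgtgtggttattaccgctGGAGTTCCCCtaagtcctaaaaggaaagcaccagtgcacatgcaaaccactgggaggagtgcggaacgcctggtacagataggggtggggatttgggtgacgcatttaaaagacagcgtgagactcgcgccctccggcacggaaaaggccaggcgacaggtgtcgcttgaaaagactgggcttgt
TNFAIP3: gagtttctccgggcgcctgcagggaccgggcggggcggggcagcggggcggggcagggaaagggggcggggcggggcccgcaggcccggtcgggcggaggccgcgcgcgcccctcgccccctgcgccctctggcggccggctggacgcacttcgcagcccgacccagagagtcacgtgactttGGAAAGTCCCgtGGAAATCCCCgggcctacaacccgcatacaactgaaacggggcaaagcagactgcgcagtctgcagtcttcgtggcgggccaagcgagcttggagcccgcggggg
NFKBIA: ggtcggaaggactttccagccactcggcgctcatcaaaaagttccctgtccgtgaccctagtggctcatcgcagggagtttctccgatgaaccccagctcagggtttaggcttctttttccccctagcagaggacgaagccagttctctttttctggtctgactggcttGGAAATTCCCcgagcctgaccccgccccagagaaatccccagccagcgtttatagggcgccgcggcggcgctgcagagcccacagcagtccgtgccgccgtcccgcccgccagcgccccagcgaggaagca
HMSD: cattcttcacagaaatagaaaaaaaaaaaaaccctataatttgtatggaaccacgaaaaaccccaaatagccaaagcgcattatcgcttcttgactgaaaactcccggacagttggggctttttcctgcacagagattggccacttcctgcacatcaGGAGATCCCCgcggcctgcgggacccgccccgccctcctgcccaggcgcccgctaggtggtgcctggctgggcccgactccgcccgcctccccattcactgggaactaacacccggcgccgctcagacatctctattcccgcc
PTGER4: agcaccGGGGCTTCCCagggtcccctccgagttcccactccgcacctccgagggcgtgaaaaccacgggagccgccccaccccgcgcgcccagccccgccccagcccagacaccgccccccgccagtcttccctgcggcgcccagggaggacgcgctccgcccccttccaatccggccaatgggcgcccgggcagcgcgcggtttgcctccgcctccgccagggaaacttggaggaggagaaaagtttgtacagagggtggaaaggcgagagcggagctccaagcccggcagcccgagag
NFKBIZ: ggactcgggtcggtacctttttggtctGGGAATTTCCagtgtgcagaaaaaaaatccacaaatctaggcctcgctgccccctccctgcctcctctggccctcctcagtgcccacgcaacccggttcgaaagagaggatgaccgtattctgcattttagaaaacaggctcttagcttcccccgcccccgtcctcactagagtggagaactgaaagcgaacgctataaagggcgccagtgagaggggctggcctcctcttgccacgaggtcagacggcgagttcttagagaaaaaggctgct

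BIRC3 and TNFAIP3 each held 2 matches, the first starting at -199 and -67 from the start site. The matches start at -81 in NFKBIA, -93 in HMSD, -244 in PTGER4 and -223 in NFKBIZ. Among all the higher genes with a window, ARNTL2, NFKB1, GBP4, SDC4, NFE2L3, FNDC3B, TAP1 and WDR65 also held the consensus. The looser pattern of GGGA, any 4 bases and CC, which overlaps the consensus, was in 43.1% of higher, 18.2% of lower and 29.7% of all windows. The interferon element core of GAAA, any 2 bases and GAAA was in 6 of 58 higher windows (10.3%, all 3.04%), those of HMSD, TNFSF10, CD274, GBP4, GBP1 and TAP1. The TATA sequence TATAAA was in 19.0% of higher and 18.2% of lower windows, against 5.49% of all. Shares nearer to or below the whole were found for TGANTCA of AP-1 (5.17%, all 4.33%), TGACGTC of the cyclic AMP element (5.17%, all 6.51%), the E-box CACGTG (6.90%, all 10.6%), TTCNNNGAA of STAT proteins (6.90%, all 6.48%), CCGGAAG of ETS proteins (12.1%, all 24.1%) and the GC box GGGCGG (70.7%, all 69.7%). The CArG element of serum response factor was in 1.72% of higher, 6.82% of lower and 1.14% of all windows. The 14 higher genes with the NF-kB consensus and the 44 without it had median log2 ratios of 1.398 and 1.32 with CD30L, and 0.87 and 0.50 with SM-164. A match is a description of these letters in this window and not a site or a cause.

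Ligands and receptors that signal death were among the higher genes. TNF read 0.367 RPKM on CHO, 2.03 on CD30L+ CHO, 0.711 with DMSO and 0.925 with SM-164, from 46.5 to 256 estimated reads, 5.49-fold (4.01 to 7.66); its wide interval reflects the few reads. TNFSF10, which encodes TRAIL, read 5.89 RPKM on CHO, 18.5 on CD30L+ CHO, 7.11 with DMSO and 12.6 with SM-164, 3.14-fold (3.04 to 3.25). FAS, the death receptor of FASLG, read 1.13 RPKM on CHO, 4.84 on CD30L+ CHO, 1.01 with DMSO and 1.77 with SM-164, 4.28-fold (4.03 to 4.55). TNF and TNFSF10 were lower on CHO than with DMSO, while the FAS values of those libraries were close. They were 2 of 5 tested TNF family ligands and 1 of 6 tested TNF receptors. TNF was under 0.5 RPKM on CHO and passed the expression minimum through its CD30L+ CHO level. The count of ligands thus rests in part on that filter. Of 14 tested caspase and necroptosis genes, 0 reached 2-fold in either direction (median log2 ratio -0.23, and -0.11 with TMM). Of 10 tested BCL2 family genes 0 did; at 1.5-fold 2 were higher and 1 lower.

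Cytokine genes were few: 7 of 54 on the list were tested, and 3 were higher. IL8, now named CXCL8, a neutrophil chemokine, read 0.394 RPKM on CHO, 3.93 on CD30L+ CHO, 0.171 with DMSO and 0.202 with SM-164, from 58 reads on CHO to 574 on CD30L+ CHO, 9.97-fold (7.60 to 13.3). It was under 0.5 RPKM in the other 3 libraries and passed the expression minimum through its CD30L+ CHO level. The count of 3 thus rests in part on that filter. IL22, a cytokine that acts on epithelia, was already high and read 20.8 RPKM on CHO, 51.1 on CD30L+ CHO, 20.4 with DMSO and 27.6 with SM-164, 2.46-fold (2.38 to 2.54). HGF, hepatocyte growth factor, read 0.592 RPKM on CHO, 1.97 on CD30L+ CHO, 0.0289 with DMSO and 0.0415 with SM-164, 3.32-fold (3.16 to 3.50); it was near 0 in both libraries without a feeder layer. Of 24 tested cytokine receptor genes 0 reached 2-fold and 5 were 1.5-fold higher, with a median log2 ratio of 0.19. IL21R, the interleukin 21 receptor, named because it was the only gene called higher with SM-164 that was not called here, read 2.54 on CHO and 4.74 on CD30L+ CHO, 1.87-fold (1.81 to 1.93).

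Receptors for chemokines and lipids, with the RGS proteins that shut off their G proteins, had 5 of 15 tested members higher and 0 lower, with a median log2 ratio of 0.48. RGS1, a GTPase activator of lymphocytes, read 8.33 RPKM on CHO, 53.99 on CD30L+ CHO, 4.12 with DMSO and 11.9 with SM-164, 6.48-fold (6.15 to 6.83), the highest of the group. PTGER4, the EP4 receptor for prostaglandin E2, read 3.66 RPKM on CHO, 18.2 on CD30L+ CHO, 3.66 with DMSO and 9.07 with SM-164, 4.96-fold (4.74 to 5.19). CCR7, which guides lymphocytes into lymph nodes, read 4.69 RPKM on CHO, 16.6 on CD30L+ CHO, 5.20 with DMSO and 10.4 with SM-164, 3.54-fold (3.39 to 3.70). CHO and DMSO values of PTGER4 and CCR7 were close, whereas RGS1 on CHO was already above DMSO. GPR132 and GPR65, receptors related in sequence that respond to lysolipids or acid, were at 3.06-fold (2.83 to 3.30) and 2.22-fold (2.10 to 2.34). GPR84, a receptor for medium-chain fatty acids that is not on the list, was at 3.05-fold (2.54 to 3.67) from 158 reads on CHO.

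Adhesion and checkpoint genes were higher in part: 3 of 16 tested, against 0.979% of all tested genes, and 0 lower. ICAM1, the ligand of the integrin LFA-1, read 2.00 RPKM on CHO, 10.1 on CD30L+ CHO, 2.02 with DMSO and 3.77 with SM-164, 5.08-fold (4.80 to 5.37). CD274, which encodes PD-L1, read 6.61 RPKM on CHO, 19.1 on CD30L+ CHO, 5.39 with DMSO and 9.27 with SM-164, 2.88-fold (2.80 to 2.97). SLAMF7, a homotypic receptor of lymphocytes, read 1.14 RPKM on CHO, 4.02 on CD30L+ CHO, 0.170 with DMSO and 0.213 with SM-164, 3.51-fold (3.25 to 3.80). ICAM1 and CD274 had similar values on CHO and with DMSO, while SLAMF7 was low in both libraries without a feeder layer. CD69, an early activation marker of the T cell receptor list that retains lymphocytes in tissue, was at 2.71-fold (2.31 to 3.20). Of 21 tested genes of class I antigen presentation only TAP1, a subunit of the peptide transporter, passed 2-fold, at 2.17-fold (1.99 to 2.37). Of 15 tested class II genes 0 did and 4 were 1.5-fold higher; HLA-DQA1 was the closest, from 7.31 to 14.8 RPKM. Reads of HLA genes may be split between near-identical copies, so these values are uncertain.

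Interferon-response genes did not move together. Of 31 tested, 2 were higher and 3 lower, against 0.979% and 0.731% of all tested genes. The median log2 ratio was -0.16, against -0.12 for all genes (-0.07 with TMM and 0.04 after subtraction of the length trend, where the sign turns). GBP1 and GBP4, interferon-induced GTPases, were at 2.36-fold (2.162 to 2.59) and 2.80-fold (2.54 to 3.10). IFITM1, IFITM2 and IFITM3, membrane proteins that restrict virus entry, were lower: IFITM1 read 16.6 RPKM on CHO, 7.88 on CD30L+ CHO, 61.6 with DMSO and 47.7 with SM-164, 0.476-fold (0.425 to 0.532). IFITM2 went from 10.1 to 3.64 RPKM, 0.361-fold (0.308 to 0.422), and IFITM3 from 3.28 to 0.866, 0.264-fold (0.189 to 0.363). All 3 IFITM genes are short and near-identical in part, and all 3 stood well below their DMSO level on CHO already. IFITM1 lost its call with TMM and after subtraction of the length trend.

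Transcription factor genes of the AP-1 and BATF families were on both sides. BATF, which pairs with JUN proteins and IRF4, read 2.12 RPKM on CHO, 8.50 on CD30L+ CHO, 1.499 with DMSO and 2.91 with SM-164, 4.01-fold (3.83 to 4.20). BATF3 read 4.94 RPKM on CHO, 13.3 on CD30L+ CHO, 12.1 with DMSO and 19.8 with SM-164, 2.68-fold (2.57 to 2.80), and on CD30L+ CHO was near its DMSO level. JUNB, a JUN protein known to be abundant in CD30-positive lymphoma, read 2.45 RPKM on CHO, 0.974 on CD30L+ CHO, 22.2 with DMSO and 22.3 with SM-164, from 204 to 80.6 reads, 0.400-fold (0.305 to 0.520); its call ended after subtraction of the length trend. JUNB and BATF3 were thus both lower on CHO than with DMSO, and differed in direction with the ligand. BTG2, an antiproliferative immediate-early gene, was at 2.75-fold (2.46 to 3.09), and ATF3, at 2.17-fold (2.08 to 2.27), lay just outside with a log2 ratio of 0.99. In all, 3 of 23 tested AP-1 and immediate-early genes were higher and 1 lower, against 0.979% and 0.731% of all tested genes. Of 38 tested lymphoid transcription factors 2 were higher, against 0.979% of all tested genes. They were HIVEP1, a zinc finger protein that binds kB-like sites, at 2.86-fold (2.80 to 2.91), and MSC, which encodes musculin, at 2.45-fold (2.07 to 2.92). ARNTL2, a partner of CLOCK now named BMAL2, was at 3.31-fold (3.20 to 3.43), and BHLHE40, a repressor of the circadian system, at 2.60-fold (2.47 to 2.74).

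Of 7 tested genes of the serpin list 3 were higher and 0 lower, with a median log2 ratio of -0.01. HMSD, a serpin-domain gene known for a minor histocompatibility antigen, read 3.40 RPKM on CHO, 19.7 on CD30L+ CHO, 5.30 with DMSO and 16.3 with SM-164, 5.79-fold (5.50 to 6.09). SERPINB8, its neighbour, read 4.37 RPKM on CHO, 17.5 on CD30L+ CHO, 3.04 with DMSO and 7.18 with SM-164, 4.00-fold (3.86 to 4.15). Both were also higher with SM-164 than with DMSO, at log2 ratios of 1.58 and 1.18. SERPINA1, which encodes alpha-1 antitrypsin, a product of ALK-positive lymphoma, read 3.62 RPKM on CHO, 8.35 on CD30L+ CHO, 4.41 with DMSO and 4.71 with SM-164, 2.30-fold (2.19 to 2.42), and differed little with SM-164.

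A mitochondrial antioxidant gene and the heavy chain of ferritin were higher with CD30L. SOD2, the mitochondrial superoxide dismutase, read 0.999 RPKM on CHO, 4.16 on CD30L+ CHO, 0.896 with DMSO and 0.889 with SM-164, 4.17-fold (3.82 to 4.54); the other 3 libraries were within 0.889 to 0.999. FTH1, the ferritin heavy chain, read 19.9 RPKM on CHO, 48.8 on CD30L+ CHO, 22.6 with DMSO and 18.8 with SM-164, 2.45-fold (2.35 to 2.56). FTL, the ferritin light chain, read 38.6 RPKM on CHO, 23.4 on CD30L+ CHO, 44.0 with DMSO and 32.4 with SM-164, 0.606-fold (0.570 to 0.644). The 2 ferritin chains, which form one shell, thus lay on opposite sides, also under TMM and after subtraction of the length trend. Reads of FTH1 and FTL may be shared with their many processed pseudogenes. GPX1 and PRDX2, which remove peroxides, were at 0.322-fold (0.171 to 0.576), from only 50.2 to 16 reads and 0.443-fold (0.381 to 0.515), and both lost their call after subtraction of the length trend. In all, 2 of 33 tested oxidative stress and iron genes were higher and 2 lower, against 0.979% and 0.731% of all tested genes. NAMPT, the rate-limiting enzyme of NAD salvage, read 34.0 RPKM on CHO, 91.3 on CD30L+ CHO, 17.7 with DMSO and 21.8 with SM-164, 2.68-fold (2.66 to 2.71).

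Genes known as p53 targets had 3 of 24 tested members higher, namely FAS, BTG2 and GADD45A, and 1 lower, PLK3. Over all tested genes 0.979% were higher and 0.731% lower. GADD45A, a stress protein that binds cell cycle kinases, read 5.06 RPKM on CHO, 11.1 on CD30L+ CHO, 4.32 with DMSO and 3.97 with SM-164, 2.18-fold (2.00 to 2.39). DRAM1, a lysosomal protein that promotes autophagy, read 0.491 RPKM on CHO, 2.39 on CD30L+ CHO, 0.234 with DMSO and 0.374 with SM-164, 4.86-fold (4.55 to 5.20), the only one of 40 tested lysosome and autophagy genes to pass 2-fold. JMY, an actin nucleator and p53 cofactor, was at 2.66-fold (2.61 to 2.71), and PLK3, a polo-like kinase, at 0.400-fold (0.334 to 0.477). SOCS2, a feedback inhibitor of cytokine receptors, was the only higher gene of 26 tested in the JAK-STAT list, at 2.28-fold (2.00 to 2.60), and LIMK2, the kinase of cofilin, the only one of 47 in the actin list, at 2.31-fold (2.27 to 2.36). With 0.979% of all tested genes higher, 1 higher gene in a list of 26 to 47 describes that gene and not the list. DRAM1 also passed the expression minimum through its CD30L+ CHO level.

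Enzymes and ubiquitin ligases completed the upper ranks. RNF19B and RFFL, both RING ubiquitin ligases, were at 3.36-fold (3.20 to 3.53) and 2.78-fold (2.73 to 2.83). HSD11B1, which turns cortisone into cortisol, and G0S2, an inhibitor of fat lipase, were at 2.96-fold (2.81 to 3.13) and 2.65-fold (2.162 to 3.26). G0S2 on CHO stood at 2.70 RPKM, below the 11.8 of DMSO, and on CD30L+ CHO at 7.14. The genes outside the naming rule, chosen after their values were seen, included TIFA, a TRAF-binding adaptor, at 2.60-fold (2.40 to 2.82); AQP9, an aquaporin, at 2.51-fold (2.39 to 2.63); SDC4, a syndecan, at 3.14-fold (2.77 to 3.57); and PPP3CC, a calcineurin subunit, at 2.45-fold (2.37 to 2.52). Of the 75 higher genes 74 are protein coding in RefSeq and 1 had no match. Counting intervals excluded 1 for all 75 and lay wholly past 2-fold for 72. For the 56 lower genes these counts were 56 and 36, and over all 7661 tested genes 5665 and 132. The genes were called by the same ratio, so these counts are no check on the calls.

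**Figure D3:**
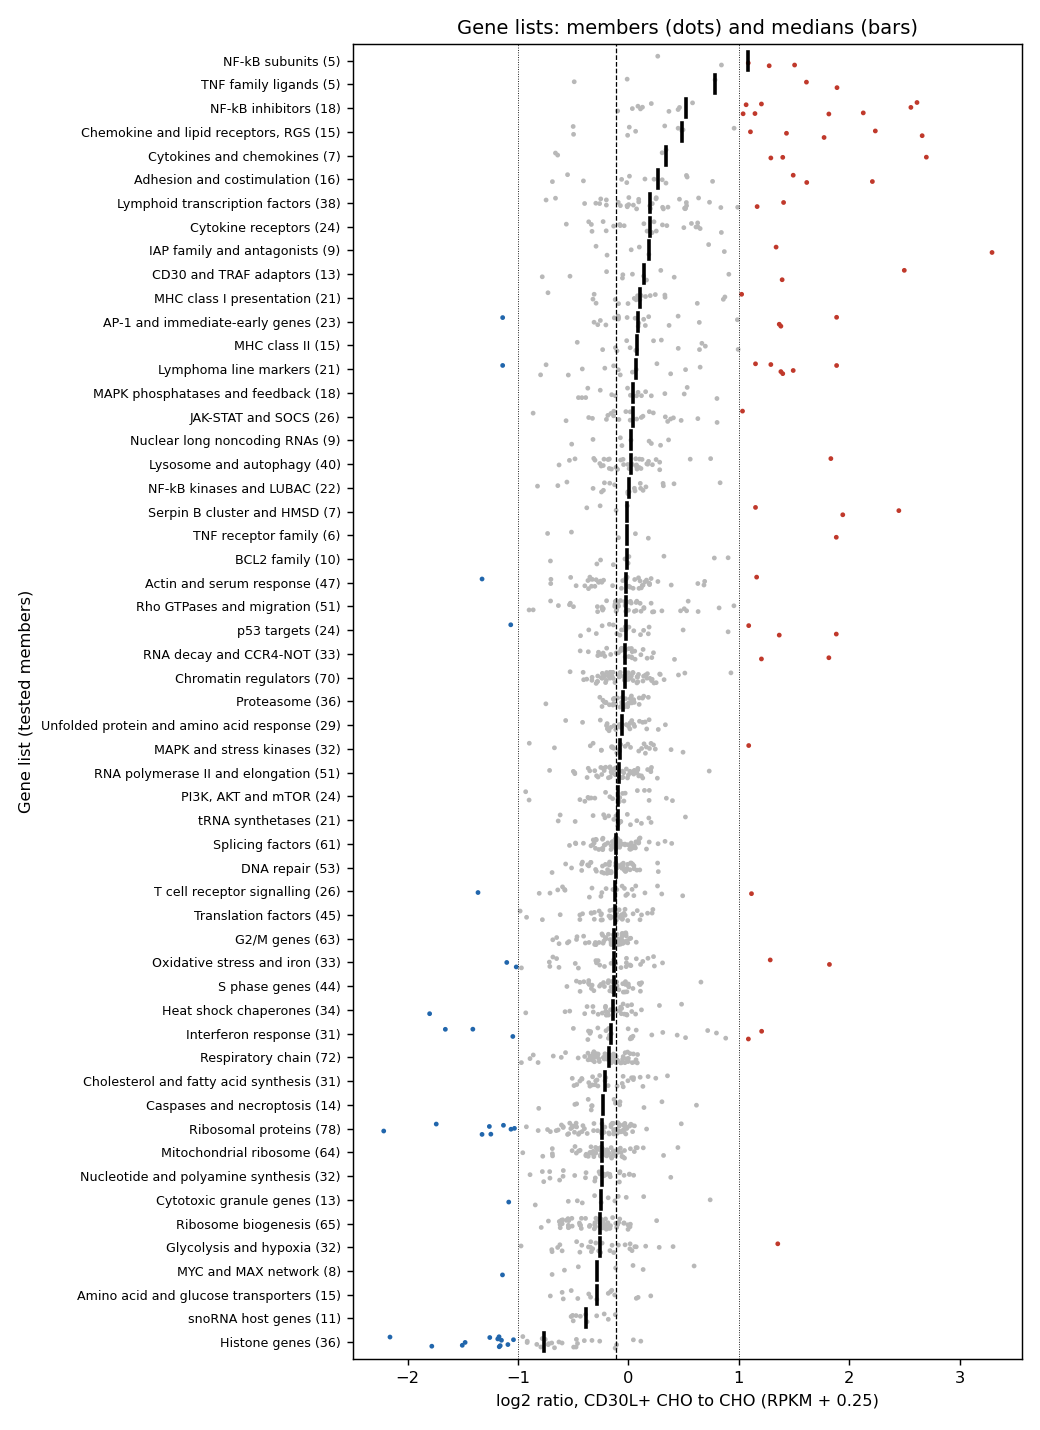
log2 ratio of CD30L+ CHO to CHO (RPKM + 0.25) for the tested members of each gene list with at least 5 of them; black bars are list medians, the dashed line is the median of all genes (-0.12) and the dotted lines are 2-fold. NF-kB subunits (1.08) stand at the top, histone genes (-0.77) at the bottom, and lists such as splicing factors or DNA repair hold 0 members past 2-fold.

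Lists of general cell functions stayed near the median gene. Among 61 splicing factors, 70 chromatin regulators, 44 S phase genes, 63 genes of G2 and mitosis, 53 DNA repair genes, 31 genes of cholesterol and fatty acid synthesis and 29 genes of the unfolded protein response, 0 reached 2-fold in either direction. Some growth-related lists lay lower, with few or no members past 2-fold, but not all did. Translation factors had a median log2 ratio of -0.13 over 45 tested members and tRNA synthetases -0.10 over 21, against -0.12 for all genes. Other lists also lay lower, such as snoRNA host genes (-0.39 over 11) and glycolysis and hypoxia genes (-0.26 over 32). MYC, the growth-promoting transcription factor, read 6.74 RPKM on CHO, 2.92 on CD30L+ CHO, 6.67 with DMSO and 4.90 with SM-164, from 1660.4 to 714 reads, 0.433-fold (0.396 to 0.473), and was the only called gene of 8 tested in the MYC and MAX network; its log2 ratio was -1.14, and -0.93 after subtraction of the length trend, where the call ends. Ribosome biogenesis genes had a median log2 ratio of -0.26 over 65 tested members (-0.15 with TMM, -0.15 after subtraction of the length trend), with 0 past 2-fold, 8 lower at 1.5-fold, and 12 above the median gene. Nucleotide and polyamine synthesis genes had -0.24 over 32, with 8 lower at 1.5-fold, and amino acid and glucose transporters -0.29 over 15. For these 3 lists the median stayed below that of all genes under TMM and the length adjustment. At 1.5-fold 4.99% of all tested genes were lower. Mitochondrial ribosome genes had -0.24 over 64, but -0.04 after subtraction of the length trend.

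Ribosomal protein and histone genes were frequent among the lower genes of short length. Over all tested genes 0.731% were lower, but in the shortest decile, of at most 3957 counted bases, 42 of 766 were. The tested ribosomal protein genes had a median of 4351 counted bases and the histone genes 463. Of 78 tested ribosomal protein genes 8 were lower and 0 higher, with a median of -0.24 and of -0.02 after subtraction of the length trend. RPS28 read 8.54 RPKM on CHO, 1.64 on CD30L+ CHO, 23.1 with DMSO and 18.9 with SM-164, from 352 to 67.0 reads, 0.192-fold (0.145 to 0.2497), and RPL36 went from 7.52 to 2.08 RPKM, 0.276-fold (0.226 to 0.335). Of 36 tested histone genes 12 were lower and 0 higher, with a median of -0.77 and of -0.46 after subtraction of the length trend. After that subtraction 4 of the 12 lower histone genes and 4 of the 8 lower ribosomal protein genes stayed called. HIST1H4L went from 28 to 3 reads, and HIST1H1B read 2.33 RPKM on CHO, 0.658 on CD30L+ CHO, 74.2 with DMSO and 40.8 with SM-164, 0.288-fold (0.175 to 0.458). The summed RPKM of the listed histone genes was 1618 with DMSO, 987 with SM-164, 104 on CHO and 53.95 on CD30L+ CHO, so both co-culture libraries were far below those without a feeder layer. SCARNA2, a small nuclear guide RNA, had the lowest ratio, with 26 reads on CHO and 1 on CD30L+ CHO against an RPKM of 65.2 with DMSO. Reads of histone and ribosomal protein genes may be split among near-identical copies, and their values are uncertain.

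**Figure D4:**
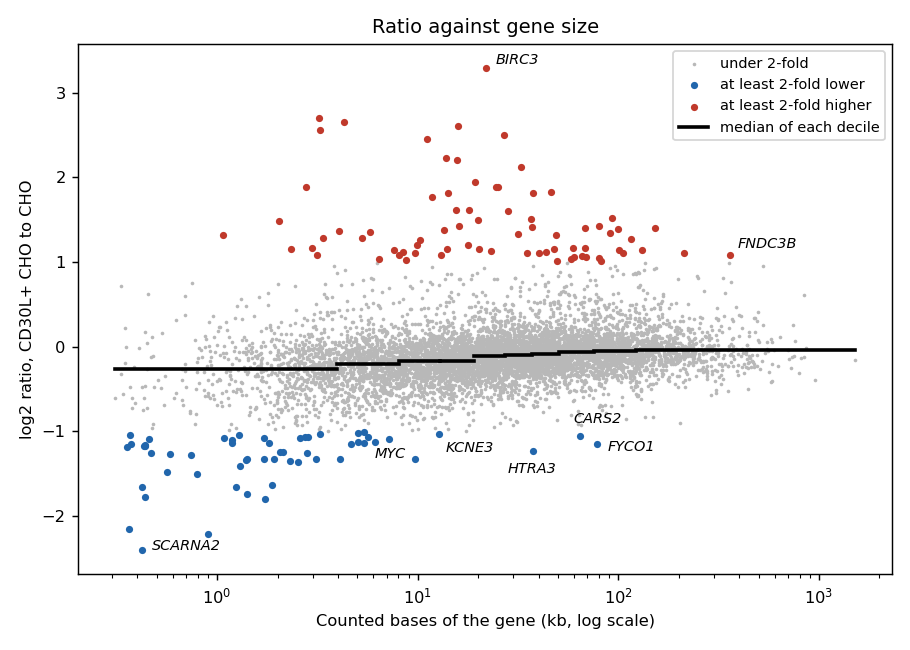
log2 ratio of CD30L+ CHO to CHO against the counted bases of each gene (kb, log scale); black bars are the median ratio of each decile of the genes. The medians run from -0.27 in the shortest genes, which hold 42 of the 56 lower genes, to -0.04 in the longest.

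The ratio moved with gene length. Genes of at most 3957 counted bases, the shortest decile, had a median log2 ratio of -0.27 with 9 higher and 42 lower genes, while the longest decile had -0.04 with 4 higher and 0 lower. The part of length in the lower calls of short genes was not tested beyond the adjustment, under which 24 of the 56 kept their call. The higher genes were spread over all the deciles of length, with 4 to 11 in each. By mean RPKM they were not evenly spread. The lowest decile of mean RPKM held 0 higher and 9 lower genes, and the highest 31 higher and 10 lower. The median log2 ratio was -0.20 in the lowest of these deciles and -0.01 in the highest.

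Of the 12 lower genes with at least 5000 counted bases, FYCO1, CARS2 and HTRA3 are the longest and had the most reads. With TMM 6 of the 12 stayed called, namely FYCO1, HTRA3, C8orf55, MYC, CD300C and RPL28, and after subtraction of the length trend 3, namely FYCO1, HTRA3 and C8orf55. CARS2, KCNE3, DMBX1, PLK3, PRDX2 and DDX41 lost the call under both. FYCO1, which links autophagosomes to microtubule motors, read 2.37 RPKM on CHO, 0.931 on CD30L+ CHO, 2.43 with DMSO and 2.26 with SM-164, from 8479.5 to 3304 reads, 0.393-fold (0.377 to 0.409). CARS2, the mitochondrial cysteinyl-tRNA synthetase, read 1.79 RPKM on CHO, 0.736 on CD30L+ CHO, 2.28 with DMSO and 2.162 with SM-164, 0.411-fold (0.391 to 0.432). HTRA3, a secreted serine protease, read 2.61 RPKM on CHO, 0.965 on CD30L+ CHO, 2.79 with DMSO and 2.08 with SM-164, 0.369-fold (0.349 to 0.391). In all 3 the other libraries lay close together and the CD30L+ CHO library alone was low. KCNE3, a potassium channel subunit, was at 0.435-fold (0.395 to 0.480), DMBX1, a homeobox gene, at 0.417-fold (0.366 to 0.474), C8orf55, now named THEM6, at 0.255-fold (0.207 to 0.313), and CD300C, an immunoglobulin-like receptor, at 0.316-fold (0.238 to 0.416) from 219.5 to 69 reads. DDX41, an RNA helicase, and RPL28 were at 0.410-fold (0.335 to 0.499) and 0.420-fold (0.375 to 0.470). Just outside the threshold were MFNG, a Notch-modifying enzyme, at 0.374-fold (0.325 to 0.429), EEF2, the elongation factor, at 0.478-fold (0.441 to 0.518), and TUBB3 at 0.428-fold (0.380 to 0.480). PIK3R6, a regulatory subunit of PI3K gamma, over 64940 bases, and SLCO4A1, an organic anion transporter, had 0.435-fold (0.411 to 0.460) and 0.436-fold (0.400 to 0.475); the 0.25 added to their low RPKM kept them under the call. ZAP70, a T cell receptor kinase, NKG7, a granule protein, and CORO1A, an actin-binding protein of leukocytes, were called lower on few reads, 108 to 23.9, 98.2 to 39.4 and 90.5 to 24.1, and NKG7 lost the call with TMM and the length adjustment.

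Thresholds cut through a continuum. Just inside on the higher side were WDR65 (1.01), SMAP2 (1.02) and TAP1 (1.02), and just outside HLA-DQA1, NTRK2 and ZEB2 (all 0.99). Just inside on the lower side were DDX41 (-1.01) and PRDX2 (-1.02), and just outside NME4 (-0.996) and MFNG (-0.99). At 1.5-fold, 201 genes were higher (2.62%) and 382 lower (4.99%).

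Some higher genes, and a similar share of lower genes, lay next to a gene of the same call. The nearest tested gene was also higher for 13 of the 75 (17.3%), while the nearest gene of all tested genes was a higher gene in 0.966%, and the nearest tested gene was also lower for 10 of the 56 lower genes (17.9%, all 0.692%). Within 200 kb, 18 of the 75 formed 9 groups. In hg19, HMSD (chr18:61616588-61627645) and SERPINB8 (chr18:61637263-61656608) follow each other on the plus strand, with SERPINB10 and SERPINB2 before them at 0 to 2 reads. CD274 (chr9:5450503-5470567) lies beside C9orf46 (chr9:5357967-5437937), now named PLGRKT, at 2.29-fold (2.21 to 2.37), while PDCD1LG2, which encodes the other PD-1 ligand, was at 1.23-fold (1.16 to 1.31). On chromosome 1, GBP1 (chr1:89517987-89531043) and GBP4 (chr1:89646831-89664633) flank GBP2 at 1.77-fold (1.71 to 1.83), and GBP3 was at 0.997-fold (0.895 to 1.11); GBP7 and GBP5, below the expression minimum, were at 4.46-fold (3.33 to 6.05) and 2.65-fold (1.93 to 3.67).

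BATF3 (chr1:212859759-212873327), FAM71A (chr1:212797789-212800120) and ATF3 (chr1:212738676-212794119) lie together, with FAM71A at 2.66-fold (2.02 to 3.54), whereas NSL1 beside them was at 0.983-fold (0.949 to 1.02). G0S2 (chr1:209848670-209849735) and HSD11B1 (chr1:209859525-209908295) have LAMB3, a laminin chain at 2.20-fold (2.07 to 2.34), on one side and TRAF3IP3, which was lower, on the other. In that stretch ratios of both directions thus lie side by side. TNFSF10 (chr3:172223298-172241297) lies beyond the end of FNDC3B (chr3:171757418-172118492), on the other strand, with the ghrelin receptor gene GHSR between them at 1 read in each co-culture. SERPINA1 (chr14:94843084-94857029) and PPP4R4 (chr14:94640649-94746072), a phosphatase subunit at 2.26-fold (2.22 to 2.31), are separated by SERPINA10 and SERPINA6 with 0 to 27 reads. BIRC2 follows BIRC3, and TMEM123 beyond it was at 1.16-fold (1.13 to 1.19). MSC overlaps LOC100132891 on the opposite strand, and both were higher. The neighbours named here were chosen after their values were seen.

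Reads on the opposite strand differed both ways among the higher genes. Of the 75 higher genes, 37 had at least 30 antisense reads over both libraries, and of these 7 were 2-fold higher on the antisense strand and 5 were 2-fold lower, against 2.15% and 4.97% of 3298 such features. The minimum was set on the sum, so a feature could pass mainly through the library where it was high. Antisense reads from CHO to CD30L+ CHO went from 6 to 28 for FAS and from 10 to 24 for BATF. In the other direction those of RELB went from 24.9 to 11. The antisense fold was above 1 for 20 of the 37, with a median of 1.06, and for 952 of 3254 uncalled genes, with a median of 0.859. Of the 56 lower genes 7 had as many antisense reads, 0 of them 2-fold higher and 2 lower. The antisense reads of BIRC3 went from 44.9 to 13, 0.291-fold (0.144 to 0.549), while its sense reads were 10.2-fold higher. ICAM1 antisense reads went from 29.3 to 8.35, 0.278-fold (0.110 to 0.623). HGF antisense reads were 639 on CHO and 1336 on CD30L+ CHO, 2.11-fold (1.92 to 2.32). NFE2L3, a transcription factor gene, had more antisense than sense reads, 14417 and 14461 antisense, 1.01-fold (0.988 to 1.03), while its sense reads were 2.88-fold higher. These genes were chosen after their values were seen.

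The SM-164 experiment shares no library with the co-cultures, and nearly all genes called higher there were also called higher with CD30L. With SM-164, 15 of 7881 genes were at least 2-fold higher than with DMSO (0.19%) and 5 lower (0.0634%). Of the 15, 14 were among the 75, which is 93.3% of the SM-164 list and 18.7% of the CD30L list. Of the 75, 40 were 1.5-fold higher with SM-164 (all tested genes 0.822%) and 70 had a ratio above 0 (all 38.4%). For 69 of the 75 the counting interval of the fold with SM-164 lay wholly below that with CD30L, and for 0 wholly above. Over all 7661 tested genes these counts were 1029 and 2116, and for the 56 lower genes 0 and 45. The 75 were chosen by a high ratio with CD30L, so a lower fold with SM-164 is in part built into the choice. BIRC3 was 6.48-fold with SM-164 and 10.2-fold with CD30L.

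Several of the 75 genes had a log2 ratio near 0 with SM-164; 68 of the 75 passed the expression minimum in that experiment. The log2 ratio with SM-164 was -0.01 for SOD2, -0.27 for FTH1 and -0.12 for GADD45A, against 1.82, 1.28 and 1.09 with CD30L. SERPINA1 had 0.09 with SM-164 and 1.15 with CD30L, and GBP1 0.15 and 1.09. IL8, HGF and SLAMF7 were below the expression minimum in the SM-164 experiment, where the added 0.25 holds a log2 ratio near 0. Their folds in reads with SM-164 were 1.18 (0.568 to 2.47), 1.44 (1.01 to 2.05) and 1.26 (0.918 to 1.72). At the other end, GPR132 and NFKBIE were 3.04-fold and 2.92-fold with SM-164 and 3.06-fold and 2.51-fold with CD30L. Of the 56 lower genes, 1 (HIST1H4D) was also 2-fold lower with SM-164, which is 20% of that list and 1.79% of this one, and their median log2 ratio with SM-164 was -0.40, against -0.04 for all genes and -0.25 for the shortest decile of genes, which holds 42 of the 56. MYC with SM-164 was at a log2 ratio of -0.43, FYCO1 at -0.09 and CARS2 at -0.07. Dose and feeder layer differed between the experiments, and sizes are given side by side only.

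**Figure D5:**
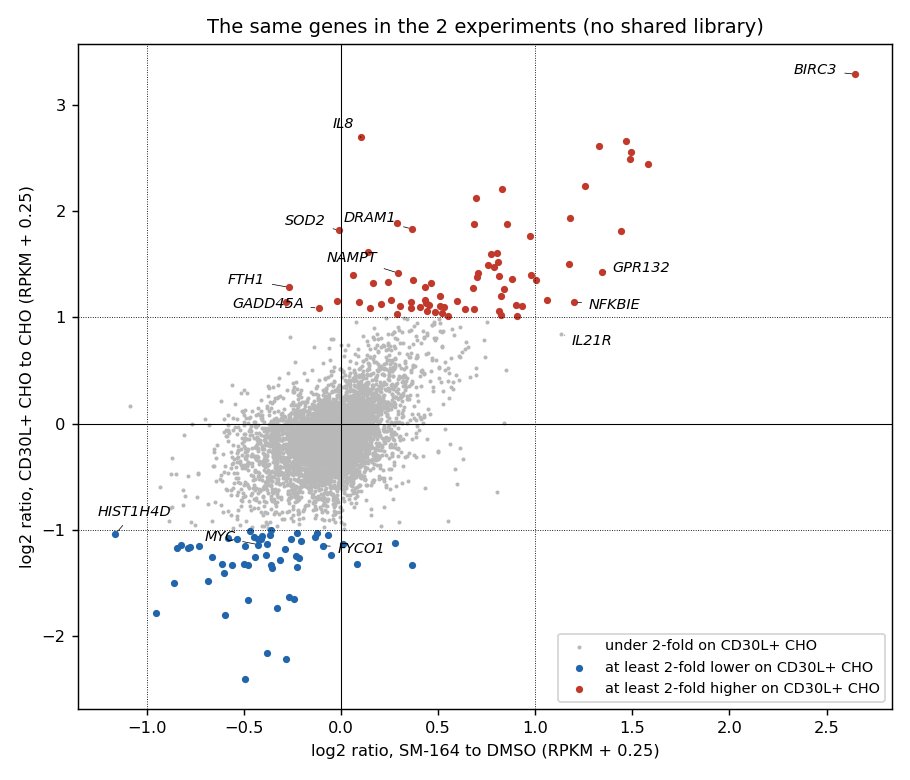
log2 ratio with SM-164 against DMSO (x axis) and with CD30L+ CHO against CHO (y axis) for the 7661 genes, RPKM + 0.25, 1 library per condition; dotted lines are 2-fold. Of the 75 red genes 70 lie right of 0, with SOD2, FTH1 and GADD45A to its left, and HIST1H4D is the blue gene beyond the left dotted line.

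Levels on CHO against DMSO, which share the CHO library with the main comparison, are given beside it only as values. The 75 higher genes had a median log2 ratio of 0.20 for CHO against DMSO, the 56 lower genes -1.41, and all tested genes 0.10. Of the 56, 37 were already 2-fold lower on CHO than with DMSO, and MYC, FYCO1, HTRA3 and CARS2 were not among them. Of the 75, 7 were 2-fold higher on CHO than with DMSO and 2 were lower, the lower ones being BATF3 and G0S2. SLAMF7 and HGF were among the 7, at 0.170, 0.213, 1.14 and 4.02 and 0.0289, 0.0415, 0.592 and 1.97 RPKM with DMSO, with SM-164, on CHO and on CD30L+ CHO. The co-culture itself and the separate preparation of the experiments cannot be told apart here.

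On the linear scale the largest gains and losses were partly in other genes. MTRNR2L2, a nuclear copy of mitochondrial ribosomal RNA, went from 2913 to 3433 RPKM, 1.18-fold (1.17 to 1.19), and MALAT1, a nuclear noncoding RNA, from 359 to 408, 1.14-fold (1.13 to 1.15); neither reached the fold threshold. The largest losses in RPKM were in MTRNR2L4, FTL and RPS2. Reads of the MTRNR2L genes may be shared with the mitochondrial ribosomal RNA they copy, so their values are uncertain. ACTB, the cytoskeletal actin, went from 47.7 to 36.9 RPKM, 0.774-fold (0.748 to 0.801), and TMSB10, thymosin beta 10, from 30.3 to 23.0, 0.759-fold (0.700 to 0.821). Both stood at over 100 RPKM with DMSO, so in these genes, too, the difference between the experiments was larger than that between the co-cultures.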

How the data were processed

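Bru-seq libraries of Karpas 299 cells, 1 per condition, were analysed from the tables the authors deposited. The submitters' processing notes name hg19 and the tools TopHat 1.4.1, Bowtie 0.12.8, bedtools 2.16.2 and CASAVA 1.8.2; which gene models were counted is not given there. The authors deposited an estimated count for each feature, exons and introns together, a signal per base (coverage), and an RPKM scaled by 1 library total per file. Totals were recovered from the deposited signal and RPKM.

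Where a symbol had several entries, the one with the most bases was used. The main value was log2((CD30L+ CHO RPKM + 0.25)/(CHO RPKM + 0.25)), called at 2-fold; the added 0.25 shrinks the differences of low genes. Printed folds use no pseudocount: they divide rounded estimated counts by library totals and carry exact conditional (Clopper-Pearson) 95% intervals. These cover counting error alone, because each condition has 1 library and the spread between cultures could not be estimated. PCR copies, which cannot be removed without molecular identifiers, are counted as separate reads, so the intervals may be too narrow. Reads were counted by strand. Gene lists (58, with 2262 distinct members, 1608 of them tested) were described by counts and medians beside those of all genes. The members and lists were chosen with earlier results of these data known. Named genes were the 40 highest and 10 lowest ratios, the 20 lowest with at least 5000 bases and 100 reads on CHO, up to 6 called members of each list, all members of the CD30, IAP and NF-kB lists, the 10 largest RPKM gains and losses, genes next to the threshold, and neighbours of these; others are marked. Promoter windows came from RefSeq, GRCh38.p14.

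Alternatives were pseudocounts of 0.1 and 1, dropping the expression minimum or raising it to 1 RPKM, a minimum of 1000 bases, a 1.5-fold call, intervals that exclude 1, a median of 0, TMM (edgeR 4.0.16, R 4.3.3), and subtraction of a running median over 301 genes ordered by length. Calculations were run in Python 3.11.15 with scipy 1.17.1, numpy 2.4.6, matplotlib 3.10.9 and pandas 2.3.3, and the procedure was tested on simulated data.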

Additional observations from a re-analysis of the deposited data

How the results depend on the processing

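With a pseudocount of 0.1 RPKM the genes at least 2-fold higher and lower numbered 85 and 97, and with 1 RPKM 43 and 15, against 75 and 56. A mean RPKM of at least 1 left 71 and 31, and subtraction of the length trend gave 96 and 24. At 1.5-fold there were 201 and 382. Without an expression minimum there were 75 and 80, with at least 1000 counted bases 75 and 39, with the median set to 0 92 and 40, and with TMM 93 and 42. The rule that the counting interval excludes 1 removed 0 genes on either side, but 5665 of all 7661 tested genes met it. Of the 75 higher genes 43 stayed called under a pseudocount of 1; of the 56 lower genes 15 stayed called under a pseudocount of 1, 42 with TMM, 40 with the median set to 0 and 24 under the length adjustment. The cause was not tested, beyond the construction of each scale: a larger pseudocount shrinks the ratios of low genes. Centring and the length adjustment move all ratios upward, so that the higher calls could not be lost under them. Depth limits the lower genes most, since 36 of the 56 had under 100 reads on CD30L+ CHO cells, against 313 of all 7661 tested genes. Of the 56, 26 were under 0.5 RPKM on CD30L+ CHO (434 of all) and passed the minimum through their CHO level. Of the 75 higher genes, 5 were under 0.5 RPKM on CHO (44 of all) and passed through their CD30L+ CHO level. They were IL8, TNF, DRAM1, SDC4 and NFE2L3. No paired analysis was possible because each condition has 1 library.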
